A study of Mus musculus with 18 samples.

Results

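The subject is a set of 52 mouse repeat subfamilies whose names begin with RLTR9 (13 rows), RLTR11 (5), RLTR13 (23), RLTR17 (4) or BGLII (7), out of 1365 rows that the authors counted as repeats. Membership followed a rule on the row name alone, and no measured value entered that rule. Earlier results of these data were known when the members were chosen. Every member carries the class LTR/ERVK in the row names, and none is an internal part (-int), so the label of long terminal repeats (LTRs) held for all 52. Another 231 rows carry the same class and serve as the nearest comparison. The groups, each of 3 libraries, were embryonic stem cells (ESCs) of the 129S1/CASTEiJ background given NVP-AUY922 at 100 nM and untreated ESCs, bone-marrow-derived macrophages of the BALBC/C57BL6 background given 500 nM and untreated macrophages, and neuronal progenitor cells (NPCs) of the 129S1/CASTEiJ background given 50 nM and untreated NPCs. Exposure lasted 24 h in each case, ESCs were kept in 2i medium, macrophages were derived with M-CSF and NPCs were grown with EGF and FGF. Dose and cell type change together, and macrophages also differ in strain, so their parts in any contrast between cell types cannot be told apart. No marker gene of a cell type is among the rows, so the labelled cell types could not be checked.

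ERVK elements are endogenous retroviruses related to betaretroviruses. An LTR flanks the provirus on either side and holds the promoter, enhancer sequence and polyadenylation signal of the virus, and recombination between the flanking copies leaves solitary LTRs, which make up most copies of many subfamilies. In mouse ESCs many ERVK elements are held silent by KRAB zinc finger proteins with the corepressor KAP1 and the methyltransferase SETDB1, while copies of some of these LTRs, RLTR9 and RLTR13D6 among them, are bound by pluripotency factors and carry enhancer marks. RLTR13D5 is known for enhancer activity in trophoblast stem cells, and RLTR17 for promoting noncoding transcripts in pluripotent cells. NVP-AUY922 blocks the ATP pocket of HSP90, a chaperone for kinases, hormone receptors and other regulatory proteins. The question put by the study's title is whether HSP90 buffers the regulatory effects of such elements.

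Poly(A) RNA was sequenced, and the values reported come from 3 tables of results that the authors deposited, with no values per library. The base mean is the mean read number of a row over the libraries after division by size factors. It rises with the number and length of copies, so it is given as the depth behind a value and never as a level between rows or tables. The sources used here do not name the numerator of the log2 fold change, so each row is given by its sign in the contrast, positive or negative, and neither sign can be read as more RNA in treated or in untreated cells. Each ± gives the standard error (SE) from the table, and a row is called when its adjusted p in the table (DESeq2, Wald test) is under 0.05. Nothing in the labels says that the libraries came from separate cultures or animals, so these p-values may measure technical spread. RLTR9A4, with a base mean of 0.171 in ESCs, 0 in macrophages and 0.146 in NPCs, had no adjusted p in the authors' deposited tables. The other 51 members were tested in all 3 tables, with base means from 26.5 to 20194 in ESCs, 11.4 to 3371 in macrophages and 11.9 to 3293 in NPCs.

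In ESCs the called members lay mostly on the negative side of the contrast, and in macrophages and NPCs they were split between the sides. The authors' deposited tables called 18 of 51 tested members in ESCs, 17 in macrophages and 8 in NPCs, against 22.2%, 25.8% and 11.8% of all tested rows. Of the 51 in ESCs, 14 were negative (27.5%) and 4 positive (7.84%) in the authors' deposited table. Over all 1132 rows tested there, 12.0% were called negative and 10.2% positive, and of the 221 other ERVK rows tested 19.9% were negative and 24.4% positive. Macrophages had 9 negative (17.6%) and 8 positive (15.7%) members of 51, against 12.5% and 13.3% of all 1255 rows in the authors' deposited table and 19.5% and 18.1% of 226 other ERVK rows. NPCs had 4 negative and 4 positive members of 51 (7.84% each), against 6.81% and 4.96% of all 1249 rows in the authors' deposited table and 8.44% and 10.7% of 225 other ERVK rows. The macrophage and NPC shares thus lay near the background. The median log2 fold change of the members was -0.08 for the ESC table, -0.08 for the macrophage table and 0.04 for the NPC table, against 0.0019, -0.01 and 0.0009 over all tested rows in the authors' deposited tables. At an unadjusted p under 0.05 the members numbered 20, 23 and 14 in ESCs, macrophages and NPCs, which compares with 31.2%, 34.7% and 20.6% of all tested rows in the authors' deposited tables. These counts and medians describe the list and do not test it, and related rows can share reads.

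**Figure D1:**
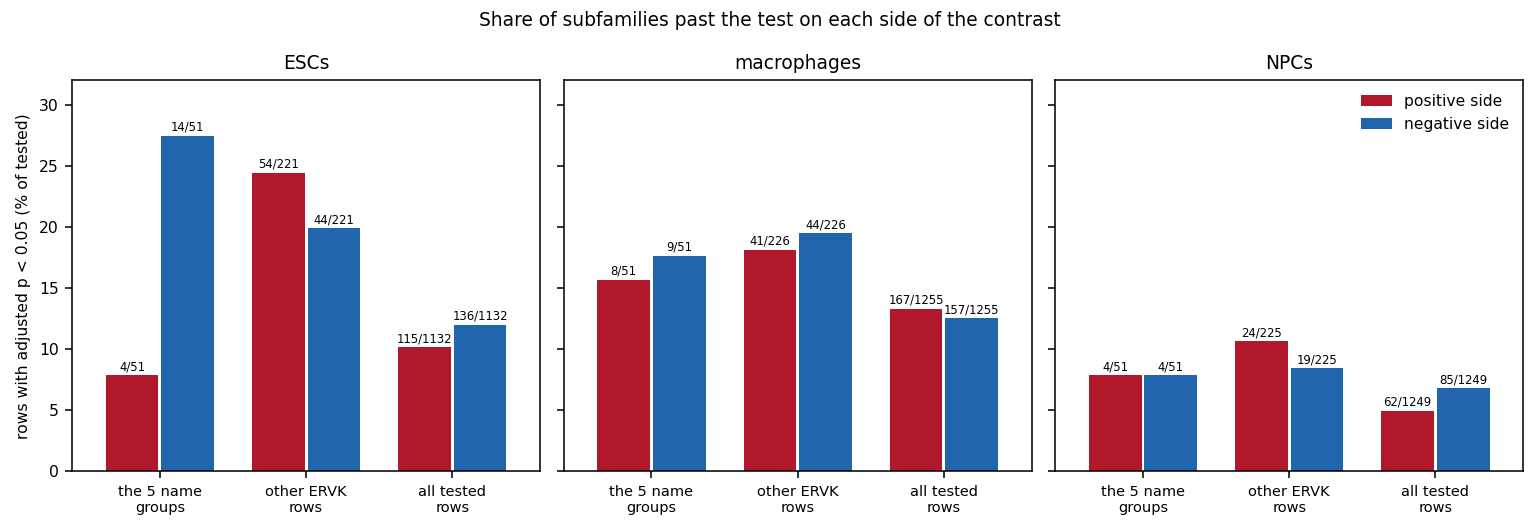
Share of tested rows with an adjusted p under 0.05 on the positive and negative side of the authors' contrast, in percent, for the 51 tested members of the 5 name groups, the other ERVK rows and all tested rows in each cell type, with the counts above the bars. In ESCs the members reach 27.5% on the negative side and 7.84% on the positive side; in NPCs both sides stand at 7.84%.

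RLTR9 LTRs were mostly negative in ESCs, and in NPCs, where 11.8% of all tested rows were called, 0 of 12 were. Of 12 tested RLTR9 rows in ESCs, 11 had values below 0, with 5 called negative, 1 called positive and a median of -0.25 in the authors' deposited table. Over all 1132 rows tested there, 561 had values below 0, with 12.0% called negative and 10.2% positive. For the 221 other ERVK rows these called shares were 19.9% and 24.4%. RLTR9A3A lay lowest there at -1.02 ± 0.18, with groups 2.02-fold apart and a base mean of 152 (adjusted p 1.71e-07, authors' deposited table). RLTR9D and RLTR9E lay close together at -0.75 ± 0.10 and -0.72 ± 0.09 in the authors' deposited table (adjusted p 3.63e-13 and 4.25e-13), and RLTR9E had the highest base mean of the group at 8806, against 1148 for RLTR9D. RLTR9A2 (base mean 126) followed at -0.53 ± 0.17 and RLTR9A3 at -0.36 ± 0.13 in the authors' deposited table (adjusted p 0.0144 and 0.0351). RLTR9B was the one row on the other side, at 0.46 ± 0.18 in the authors' deposited table (adjusted p 0.0438), and that adjusted p became 0.0517 when the adjustment ran over every row with a p. The 6 rows that were not called in ESCs ranged from -0.30 to -0.06 in the authors' deposited table.

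In macrophages the RLTR9 row that stood apart was a different one. RLTR9A3, with the highest base mean of the group there (497), lay at -1.47 ± 0.10 (2.77-fold, adjusted p 1.15e-48), the 10th lowest value of all tested rows in the authors' deposited macrophage table. RLTR9D was again negative at -0.54 ± 0.10 (base mean 229.5, adjusted p 1.14e-06), whereas RLTR9E lay on the positive side at 0.31 ± 0.12 (adjusted p 0.0344) in the authors' deposited macrophage table. The near relatives RLTR9A3A and RLTR9A3B were not called there, at -0.18 ± 0.26 and -0.42 ± 0.34 with base means of only 23.3 and 16.2 in the authors' deposited macrophage table. In NPCs 0 of 12 RLTR9 rows were called by the authors' DESeq2 test and 1 had an unadjusted p under 0.05, with values from -0.24 to 0.47 in the authors' deposited table. Over all tested NPC rows these shares were 11.8% and 20.6%, so 0 of 12 does not set the group apart. RLTR9D, which had the highest base mean of the group there (223), was the highest of them at 0.47 ± 0.21 in the authors' deposited table, without passing. The SE of the NPC rows was 0.21 to 0.43 in the authors' deposited table, and none of the 12 tested rows had a 95% interval that lay within 0.5 of 0.

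Among the RLTR11 LTRs a single row, RLTR11A, carried the large values, and it was negative in all 3 cell types. RLTR11A lay at -2.22 ± 0.14 in macrophages, 4.66-fold apart at a base mean of 3046 (adjusted p 1.80e-58), the 5th lowest value of all tested rows in the authors' deposited table. It lay at -0.61 ± 0.07 in ESCs (1.53-fold, base mean 3844, adjusted p 1.05e-14) and at -0.75 ± 0.17 in NPCs (1.68-fold, base mean 2569, adjusted p 0.000379) in the authors' deposited tables. It had the highest base mean of its group in each table. RLTR11A2, the row closest to it by name, was called in macrophages at -0.20 ± 0.07 (adjusted p 0.0347) and not elsewhere, with -0.05 ± 0.08 in ESCs and 0.08 ± 0.16 in NPCs in the authors' deposited tables. Centring the macrophage table on its median brought the adjusted p of RLTR11A2 to 0.0516. RLTR11B, RLTR11C_MM and RLTR11D were called in no table, and the authors' deposited tables put them between -0.08 and 0.04 in ESCs, between -0.30 and 0.15 in macrophages and between -0.40 and 0.07 in NPCs. All 4 RLTR11 rows that were not called in ESCs had 95% intervals within 0.5 of 0. Called rows were 20%, 40% and 20% of the 5 RLTR11 rows in ESCs, macrophages and NPCs. Of all tested rows 22.2%, 25.8% and 11.8% were called. So few rows do not set the group apart from these shares.

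RLTR13, the largest group, held the lowest value of all members and rows on both sides of each contrast. Of 23 RLTR13 rows, 6 were negative and 3 positive in ESCs, 4 and 4 in macrophages, and 3 and 3 in NPCs in the authors' deposited tables, with medians of -0.05, -0.02 and 0.04. Called rows were thus 39.1%, 34.8% and 26.1% of the 23, against 22.2%, 25.8% and 11.8% of all tested rows. For the other ERVK rows the shares were 44.3%, 37.6% and 19.1%. RLTR13G lay at -2.76 ± 0.10 in ESCs, 6.75-fold apart at a base mean of 20194, the highest of any member. This was the 4th lowest value of all tested rows (adjusted p 2.08e-160) in the authors' deposited table. In macrophages it lay at -0.49 ± 0.12 (1.40-fold, base mean 390, adjusted p 0.000464), and in NPCs it was not called at 0.29 ± 0.21 (base mean 249, adjusted p 0.548) in the authors' deposited tables. The rows nearest in the lettering did not share this size: RLTR13E was negative in ESCs at -0.62 ± 0.09 (base mean 961, adjusted p 3.34e-10) and RLTR13F was not called at 0.03 ± 0.22 in the authors' deposited table.

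The RLTR13A and RLTR13B rows differed among themselves. RLTR13A was negative in ESCs at -0.42 ± 0.11 (adjusted p 0.00138) and positive in macrophages at 0.76 ± 0.18 (1.70-fold, base mean 312, adjusted p 0.00016) in the authors' deposited tables, with 0.53 ± 0.22 in NPCs, which did not pass. RLTR13A1 was positive in ESCs at 0.46 ± 0.13 (adjusted p 0.0041) and not called elsewhere in the authors' deposited tables. RLTR13A3 was called in NPCs alone, at 1.10 ± 0.23 (2.14-fold, base mean 339.6, adjusted p 4.99e-05), while its values in ESCs and macrophages were 0.00 ± 0.11 and -0.05 ± 0.15 in the authors' deposited tables. RLTR13A2 was called in no table. RLTR13B1, with the highest base mean of the group in macrophages (1195), was negative in all 3 tables, at -0.49 ± 0.10 in ESCs (adjusted p 1.59e-05), -0.20 ± 0.08 in macrophages (adjusted p 0.041) and -0.75 ± 0.25 in NPCs (base mean 545.6, adjusted p 0.028) in the authors' deposited tables. Its macrophage adjusted p was 0.0603 once that table was centred on its median. RLTR13B4 was negative in macrophages at -0.61 ± 0.13 (base mean 143, adjusted p 2.2e-05) and RLTR13B3 positive there at 0.39 ± 0.15 (adjusted p 0.0471) in the authors' deposited table. RLTR13B2 was called nowhere.

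Of the RLTR13C rows, RLTR13C1 had the highest value of any member in ESCs. It lay at 0.71 ± 0.09 (1.64-fold, base mean 899.6, adjusted p 3.09e-14) and, with the same sign, at 0.39 ± 0.12 in macrophages (adjusted p 0.00783) in the authors' deposited tables. RLTR13C3 was on the negative side in ESCs at -0.32 ± 0.11 (adjusted p 0.0265) and in NPCs at -0.80 ± 0.25 (1.74-fold, base mean 73.1, adjusted p 0.0143) in the authors' deposited tables. RLTR13C2 passed in no table.

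The 9 RLTR13D rows pointed in different directions within each cell type. RLTR13D1 had the lowest NPC value of any member at -1.80 ± 0.22, 3.48-fold apart at a base mean of 116 (adjusted p 2.02e-14), and the 7th lowest of all tested rows in the authors' deposited table. Its values of -0.20 ± 0.18 in ESCs and 0.12 ± 0.18 in macrophages did not pass in the authors' deposited tables. RLTR13D6 was positive in NPCs at 0.91 ± 0.18 (1.88-fold, base mean 673, adjusted p 1.83e-05) and in macrophages at 0.69 ± 0.13 (1.61-fold, base mean 266, adjusted p 1.05e-06), and lay at -0.08 ± 0.11 in ESCs in the authors' deposited tables. RLTR13D3 was called in every table, negative in ESCs at -0.60 ± 0.11 (base mean 534, adjusted p 2.92e-07) and macrophages at -0.28 ± 0.10 (adjusted p 0.0205) and positive in NPCs at 0.56 ± 0.20 (base mean 219, adjusted p 0.0429) in the authors' deposited tables. RLTR13D3A was called in no table, and RLTR13D3A1, which had the highest base mean of the group in NPCs (691), was positive in ESCs at 0.31 ± 0.10 (adjusted p 0.0129) and lay at -0.05 ± 0.21 in NPCs in the authors' deposited tables. RLTR13D5, the trophoblast enhancer LTR, passed nowhere: the authors' deposited tables gave -0.06 ± 0.11 in ESCs, -0.10 ± 0.14 in macrophages and -0.31 ± 0.23 in NPCs. RLTR13D, RLTR13D2 and RLTR13D4 also passed in none.

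The RLTR17 LTRs had a single call over the 3 tables. RLTR17 itself was positive in macrophages at 0.44 ± 0.08 (1.36-fold, base mean 1401, adjusted p 4.41e-07) in the authors' deposited table. In ESCs, where it had the highest base mean of the group (4423), it lay at -0.01 ± 0.08 with a 95% interval from -0.17 to 0.16, and in NPCs at 0.09 ± 0.14 in the authors' deposited tables. RLTR17B_Mm, with base means of 3371 in macrophages and 3293 in NPCs, lay at -0.08 ± 0.06 and 0.17 ± 0.15 there in the authors' deposited tables, and at 0.15 ± 0.07 in ESCs (adjusted p 0.135). The authors' DESeq2 test called 0 of the 4 RLTR17 rows in ESCs and 0 in NPCs, with 1 and 0 at an unadjusted p under 0.05. Of all tested rows it called 22.2% in ESCs, 25.8% in macrophages and 11.8% in NPCs. With only 4 rows, counts of 0 or 1 do not set the group apart from these shares. All 4 had 95% intervals within 0.5 of 0 in ESCs, as did 2 of 4 in NPCs.

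Of the 7 BGLII LTRs, 2 were called negative in ESCs, 1 negative and 2 positive in macrophages, and 1 positive in NPCs. That is 28.6%, 42.9% and 14.3% of the 7, against 22.2%, 25.8% and 11.8% of all tested rows. So few rows do not set the group apart from these shares. BGLII lay at -0.83 ± 0.09 in ESCs (1.78-fold, base mean 2603, adjusted p 1.58e-18) and BGLII_Mur at -0.70 ± 0.10 (1.62-fold, base mean 560, adjusted p 3.17e-10) in the authors' deposited table, with the other 5 rows between -0.16 and 0.19. BGLII_Mur was negative in macrophages too, at -0.80 ± 0.13 (1.75-fold, base mean 142, adjusted p 1.97e-08), while BGLII lay at -0.02 ± 0.12 in the authors' deposited macrophage table. BGLII_A at 0.42 ± 0.14 and BGLII_C at 0.47 ± 0.17 were positive there (adjusted p 0.0128 and 0.0284, authors' deposited table), and BGLII_B, with the highest base mean of the group in macrophages (669), was not called at 0.13 ± 0.07. In NPCs BGLII_C was positive at 1.04 ± 0.33 (2.06-fold, adjusted p 0.017) on a base mean of only 39.9, and BGLII, with the highest base mean of the group there (650), lay at -0.24 ± 0.16 (adjusted p 0.449) in the authors' deposited table.

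**Figure D2:**
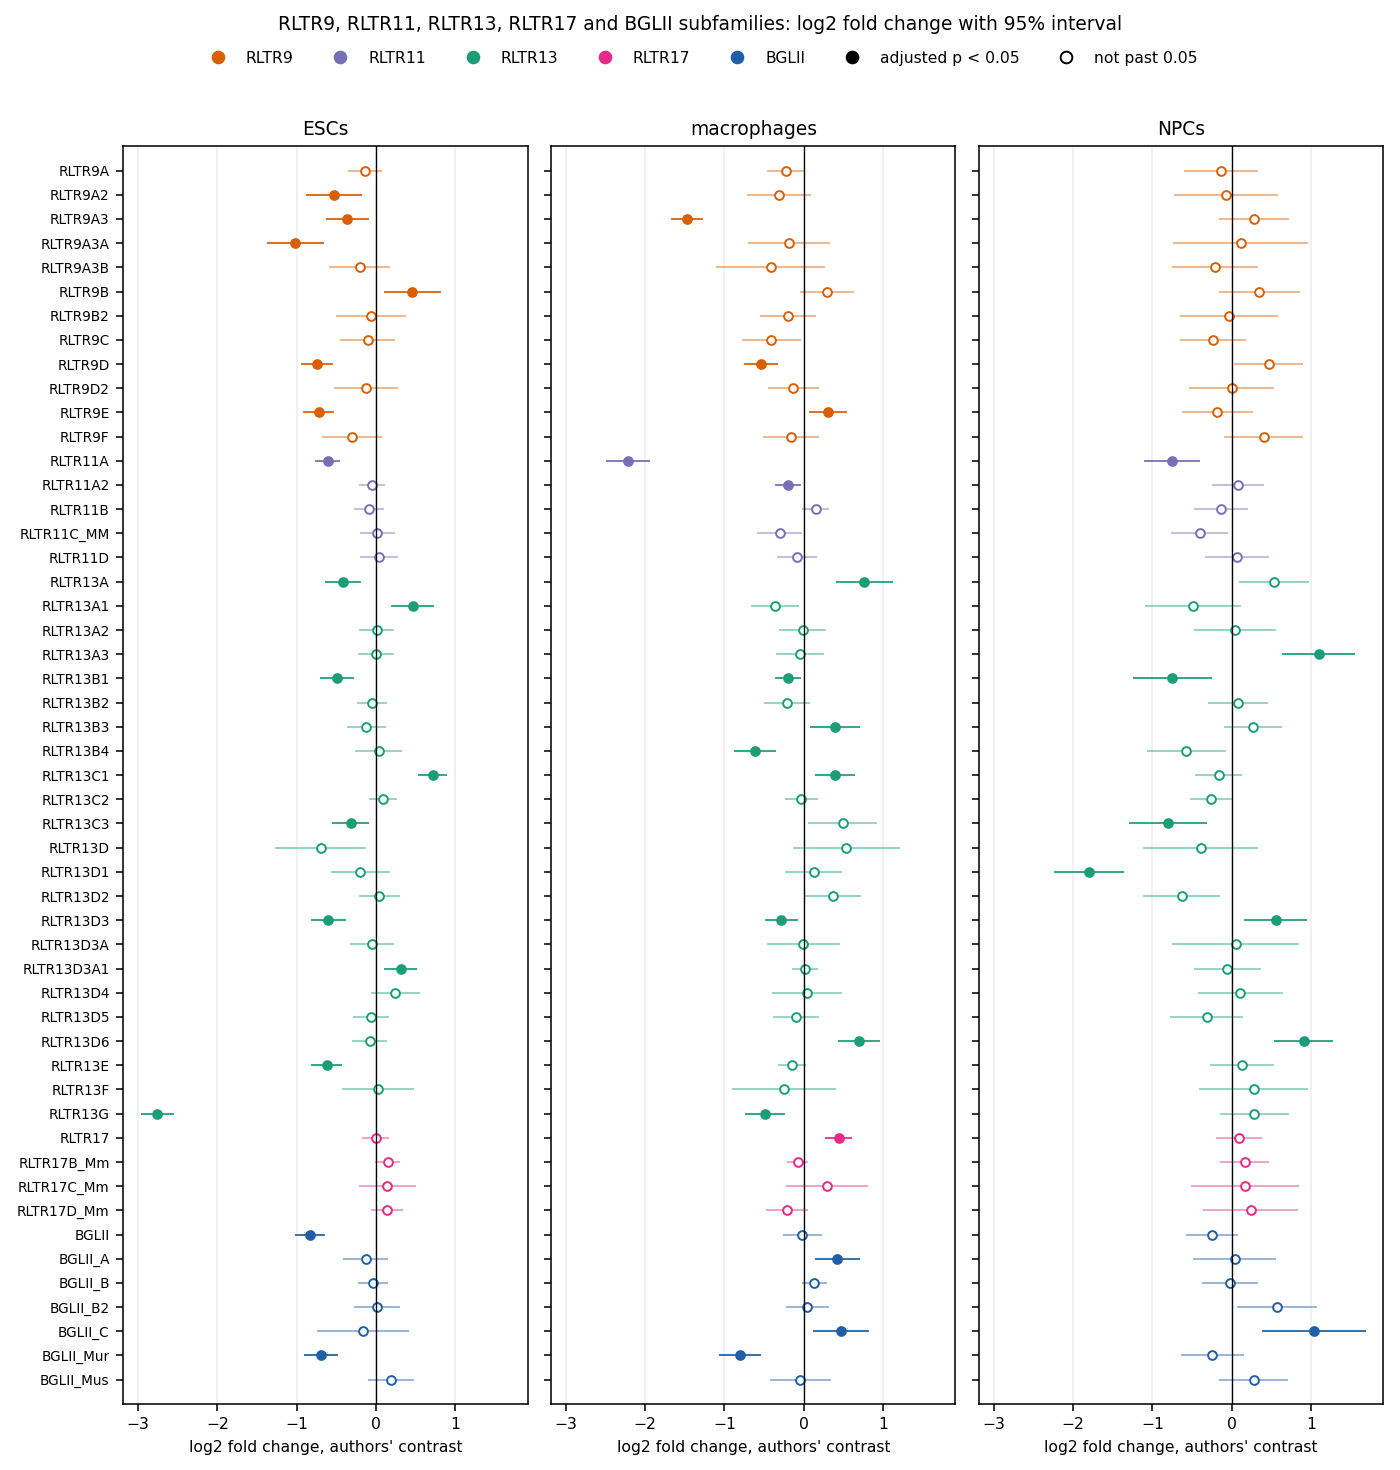
Log2 fold change of the 51 tested members in the authors' contrast, with bars for the 95% interval (value ± 1.96 SE), in ESCs, macrophages and NPCs; filled points have an adjusted p under 0.05 and colours mark the name group. RLTR13G in ESCs (-2.76), RLTR11A in macrophages (-2.22) and RLTR13D1 in NPCs (-1.80) lie farthest from 0, and the NPC intervals are the widest.

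Calls were spread over many members, and few members were called in every cell type. Of the 51 members tested in all tables, 24 were called in none, 14 in 1, 10 in 2 and 3 in all 3 of the authors' deposited tables. This spread was not counted over all rows, so it is not read as a trait of the members. Of all tested rows 22.2%, 25.8% and 11.8% were called in ESCs, macrophages and NPCs. The 3 were RLTR11A and RLTR13B1, negative throughout, and RLTR13D3. Between macrophages and ESCs 10 members were called in both tables, which is 58.8% of the macrophage and 55.6% of the ESC calls, 8 of them on the same side. Over all rows the authors called 106 in both tables, or 32.7% of the macrophage and 42.2% of the ESC calls, with 72 on the same side. Between NPCs and ESCs 4 members were shared (50.0% of the NPC and 22.2% of the ESC calls), beside 52 of all rows (35.4% and 20.7%). Between macrophages and NPCs 5 were shared (29.4% of the macrophage and 62.5% of the NPC calls), beside 59 of all rows (18.2% and 40.1%). Members called on opposite sides in a pair of tables were RLTR9E, RLTR13A and RLTR13D3. For macrophages with ESCs 2 members lay on opposite sides, beside 34 of all rows. For NPCs with ESCs and for macrophages with NPCs it was 1 member each, beside 15 of all rows each. Same and opposite sides hold only if every table has the same group as numerator, which nothing in the labels or headers states.

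The difference between cell types was then tested directly for each row with an adjusted p in both tables of a pair, by dividing the gap between the authors' values by its own SE, with a normal two-sided p and Benjamini-Hochberg adjustment over all rows compared. The test assumes that every table has the same group as numerator, and nothing in the labels or headers says so. The comparisons share tables but no library enters more than 1 cell type. Macrophages and ESCs differed in 16 of 51 members (31.4%), against 23.7% of all 1124 rows compared, with 12 higher and 4 lower in macrophages (11.8% of all rows each way). NPCs and ESCs differed in 12 of 51 (23.5%), against 12.6% of 1126 rows, with 9 higher and 3 lower in NPCs (6.13% and 6.48% of all rows). Macrophages and NPCs differed in 10 of 51 (19.6%), against 12.4% of 1222 rows, with 4 higher and 6 lower in macrophages (6.22% and 6.14% of all rows). Neither these shares nor the shared calls above were counted for the other ERVK rows. Those rows were called more often than all tested rows in each table, so an excess over all rows is not read as a trait of the members. In all, 23 members passed in at least 1 of the 3 comparisons. That number was not counted over all rows, so it is not read as a trait of the members. RLTR13G passed in all 3, although for macrophages minus NPCs the value of -0.77 became -0.20 (adjusted p 0.651) with the signs of the NPC table turned, and it did not pass at 0.01 or with Holm adjustment.

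The widest differences involved the members with the lowest values, which the construction favours, since each difference is taken from these same values. RLTR13G lay higher in NPCs than in ESCs by 3.04 ± 0.24 (0.29 against -2.76, adjusted p 4.65e-35) and higher in macrophages than in ESCs by 2.27 ± 0.16 (-0.49 against -2.76, adjusted p 8.67e-45). RLTR11A lay lower in macrophages than in ESCs with a difference of -1.61 ± 0.15 (-2.22 against -0.61, adjusted p 8.32e-24) and than in NPCs with -1.47 ± 0.22 (-2.22 against -0.75, adjusted p 2.02e-09). Of the RLTR11A values in NPCs and ESCs no difference was called, at -0.14 ± 0.19. RLTR13D1 lay higher in macrophages than in NPCs by 1.93 ± 0.28 (0.12 against -1.80, adjusted p 9.78e-10). RLTR9A3 differed by -1.76 ± 0.24 between macrophages and NPCs (-1.47 against 0.28, adjusted p 3.65e-11) and by -1.11 ± 0.17 between macrophages and ESCs (-1.47 against -0.36, adjusted p 5.64e-10).

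The members called on opposite sides passed the test of the difference. This follows largely from how they were picked, since the test uses the same values, and it adds no separate support. RLTR13A was higher in macrophages than in ESCs by 1.18 ± 0.21 (0.76 against -0.42, adjusted p 3.49e-07), which became 0.34 (adjusted p 0.23) with the signs of the ESC table turned. RLTR9E was higher in macrophages than in ESCs by 1.03 ± 0.15 (0.31 against -0.72, adjusted p 1.65e-10). RLTR13D3 was higher in NPCs than in ESCs by 1.16 ± 0.22 (0.56 against -0.60, adjusted p 7.38e-06) and lower in macrophages than in NPCs, at -0.84 ± 0.22 (-0.28 against 0.56, adjusted p 0.00299). RLTR9D, negative in ESCs and macrophages, was higher in NPCs than in ESCs by 1.21 ± 0.23 (0.47 against -0.75, adjusted p 7.15e-06), although its NPC value by itself did not pass. RLTR13D6 was higher than in ESCs both in macrophages, by 0.77 ± 0.17 (0.69 against -0.08, adjusted p 5.5e-05), and in NPCs, by 0.99 ± 0.21 (0.91 against -0.08, adjusted p 6.33e-05). BGLII was higher in macrophages than in ESCs by 0.81 ± 0.15 (-0.02 against -0.83, adjusted p 1.06e-06). With the ESC table turned, macrophages minus ESCs became -0.42 for RLTR9E (adjusted p 0.0232) and -0.85 for BGLII (adjusted p 1.65e-07). NPCs minus ESCs became -0.047 for RLTR13D3 (adjusted p 0.929) and -0.28 for RLTR9D (adjusted p 0.485). RLTR13D6 kept its sign and passed in macrophages (0.61) and in NPCs (0.83). With the NPC table turned, RLTR13D3 in macrophages minus NPCs no longer passed.

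**Figure D3:**
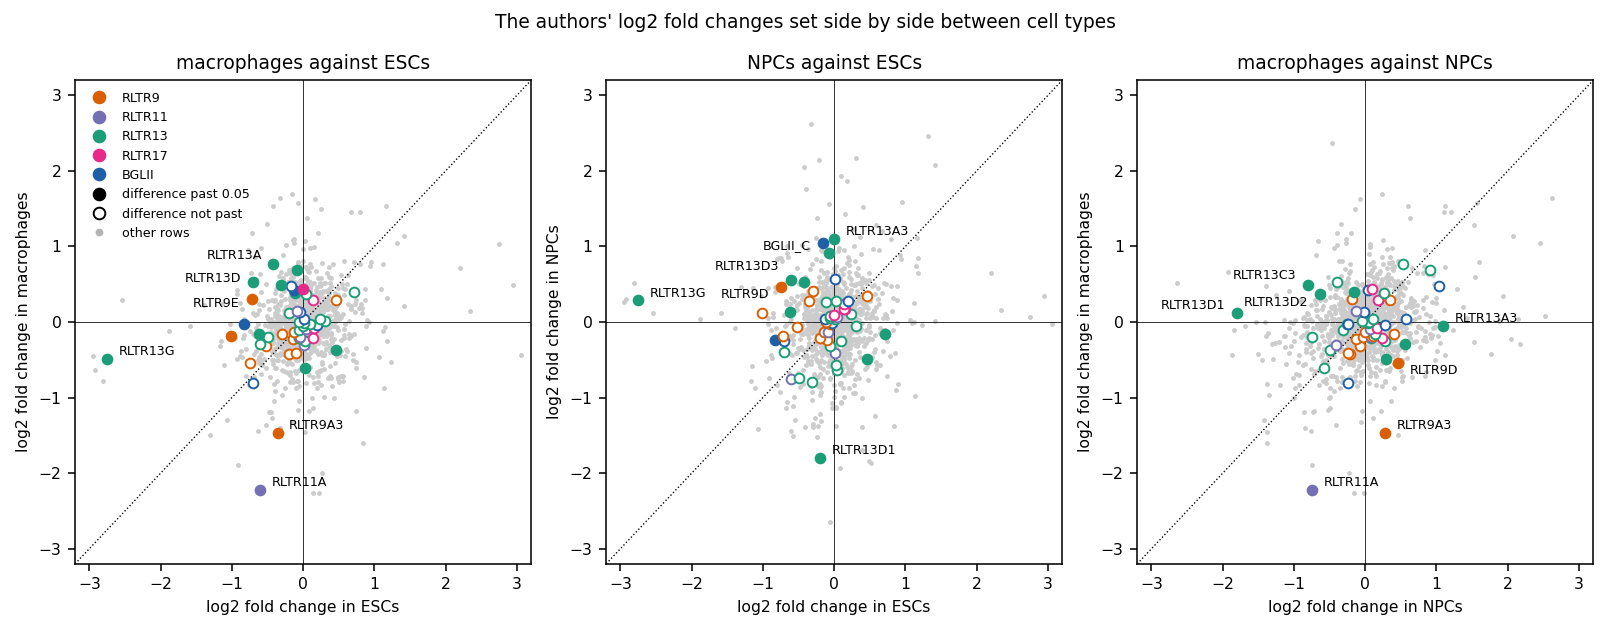
Log2 fold changes of the authors' tables set against each other for each pair of cell types; grey points are other rows tested in both tables, coloured points the members, filled where the difference has an adjusted p under 0.05 and named where it is also at least 1 in size. The dotted line marks equal values, and 3, 2 and 3 rows (left to right), none of them a member, lie beyond the axis limit of 3.2. RLTR13G lies far left of the line against ESCs and RLTR11A far below it in macrophages.

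How closely a member without a call was held to 0 differed between cell types. The authors' deposited tables gave the members a median SE of 0.11 (ESCs), 0.14 (macrophages) and 0.22 (NPCs). The members that were not called had 95% intervals within 0.5 of 0 in 26 of 33 cases in ESCs, 20 of 34 in macrophages and 9 of 43 in NPCs. In NPCs the intervals of most uncalled members reached beyond this size. For RLTR9A4, with a base mean of 0.171 in ESCs, the authors' deposited table lists an SE of only 0.11, smaller than so few reads would allow unless fold changes were shrunk towards 0. The sources used here do not state such a step, and where base means differ between tables, as for RLTR9A3A (152 in ESCs and 23.3 in macrophages), its part in a difference was not tested. Called members were found from a base mean of 39.9 (BGLII_C in NPCs) to 20194 (RLTR13G in ESCs).

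**Figure D4:**
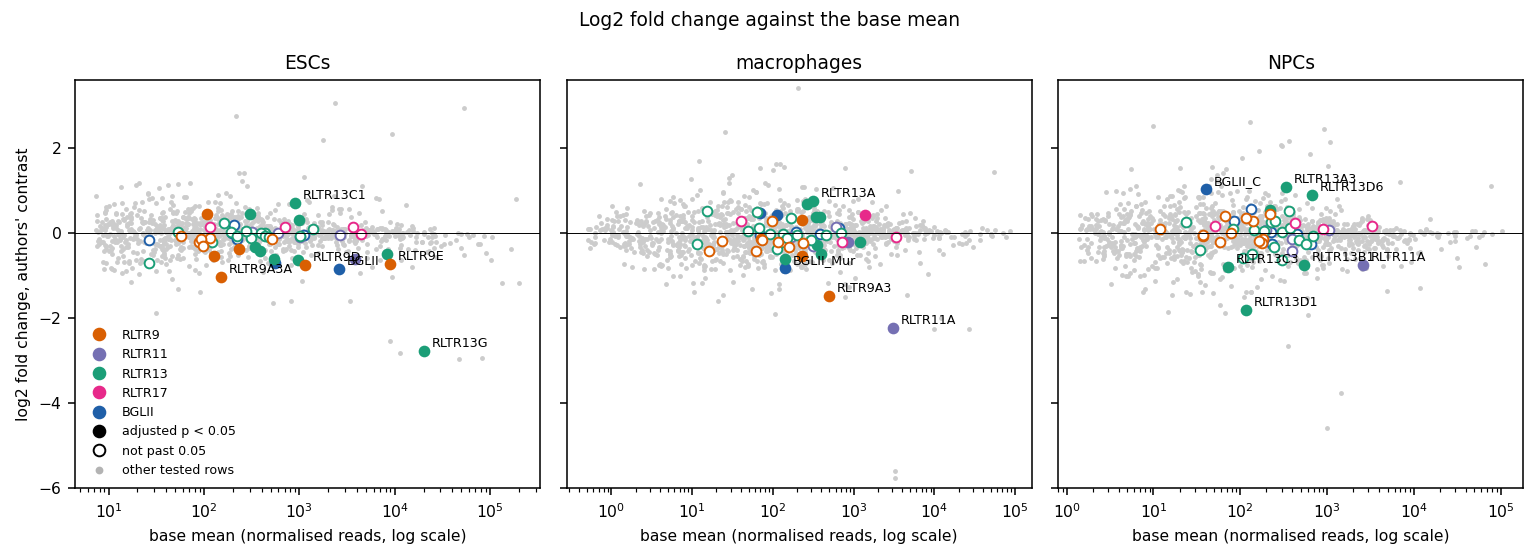
Log2 fold change in the authors' contrast against the base mean in normalised reads (log scale) for each cell type; grey points are other tested rows, coloured points the members, filled where the adjusted p is under 0.05 and named where the value is also at least 0.7 from 0. RLTR13G (base mean 20194) and RLTR11A (base mean 3046 in macrophages) stand apart at high base means, while BGLII_C in NPCs rests on a base mean of 39.9.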

How the data were processed

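Poly(A) RNA from 18 mouse libraries in 6 groups of 3 was sequenced with stranded paired-end libraries, per the labels' protocols. The submitters' processing notes name build mm10 and the tools DESeq2, featureCounts, Bowtie2, TopHat2 2.0.13, deepTools and Trim Galore without their roles. Each of the 3 deposited tables has the columns of a DESeq2 result, per the file headers. Its signal column, the base mean, is the authors' mean of size-factor-normalised reads. The log2 fold change and its log2 SE are the authors' estimates, a score column holds the authors' Wald statistic, and p-values, raw and adjusted, are as deposited. The statistic equalled the value over its SE, and the adjusted p a Benjamini-Hochberg adjustment, in all rows that carry them (relative tolerance 1e-06). Assignment of reads that fit several copies: not given in the sources used here. So related rows can share reads, and reads of genes holding a copy can enter a row. Depth per library is not given there either.

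Calls are those of the authors' table. Differences between cell types were computed here with Python 3.11.15, SciPy 1.17.1 and pandas 2.3.3, and the code was run on simulated tables. Those tables held independent normal values with the deposited SEs, as the test itself assumes. They therefore check the code alone and not the effect of shrunken fold changes, shared reads or technical replicates. Of rows called in both tables, 72 of 106 (macrophages and ESCs), 37 of 52 (NPCs and ESCs) and 44 of 59 (macrophages and NPCs) lay on the same side. Members and lists were chosen with earlier results of these data known. Values were named in full where a member passed with an absolute log2 fold change of at least 0.5 in any table or had the highest base mean of its name group, and otherwise by value or range. Alternatives were another threshold (0.01), a base mean of at least 50, other adjustments, centring, a size of 0.5 and a turned table.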

Additional observations from a re-analysis of the deposited data

Results flagged for a closer look

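All members whose difference between cell types passed the test are listed here, since an effect in 1 cell type and not another was shown to differ only for these. Values are differences of the authors' log2 fold changes and rest on the tables being oriented alike.

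In macrophages minus ESCs, the RLTR13 rows gave 2.27 (RLTR13G), 1.23 (RLTR13D), 1.18 (RLTR13A), 0.81 (RLTR13C3), 0.77 (RLTR13D6), 0.51 (RLTR13B3), 0.47 (RLTR13E), -0.65 (RLTR13B4) and -0.83 (RLTR13A1). RLTR13D rests on base means of 15.5 in macrophages and 26.5 in ESCs and was called in neither table. RLTR9 rows gave 1.03 (RLTR9E), 0.84 (RLTR9A3A) and -1.11 (RLTR9A3). The remaining values were 0.81 for BGLII, 0.55 for BGLII_A, 0.45 for RLTR17 and -1.61 for RLTR11A.

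In NPCs minus ESCs, the RLTR13 rows gave 3.04 (RLTR13G), 1.16 (RLTR13D3), 1.09 (RLTR13A3), 0.99 (RLTR13D6), 0.95 (RLTR13A), 0.76 (RLTR13E), -0.88 (RLTR13C1), -0.95 (RLTR13A1) and -1.61 (RLTR13D1). The others were 1.21 for RLTR9D, 1.20 for BGLII_C and 0.59 for BGLII.

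In macrophages minus NPCs, the RLTR13 rows gave 1.93 (RLTR13D1), 1.29 (RLTR13C3), 1.001 (RLTR13D2), 0.56 (RLTR13C1), -0.77 (RLTR13G), -0.84 (RLTR13D3) and -1.15 (RLTR13A3). RLTR9A3 gave -1.76, RLTR9D -1.004 and RLTR11A -1.47. RLTR13D2 and RLTR13C3 were not called in macrophages, and RLTR13D2 was not called in NPCs.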

How the results depend on the processing

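No paired analysis was possible because the deposited tables hold the authors' comparisons and no column per library; for the same reason no library could be left out and no other normalisation could be tried. Of 43 calls over the 3 tables, Holm adjustment ended 20. Called members numbered 13, 10 and 4 in ESCs, macrophages and NPCs at an adjusted p under 0.01 (positive members 2, 4 and 2, and 2 negative in NPCs), against 18, 17 and 8. With Holm adjustment they were 11, 8 and 4 (positive 1, 3 and 2; negative 5 in macrophages and 2 in NPCs). With a size of at least 0.5 they were 11 in ESCs and 7 in macrophages (positive 1 and 2; negative 5 in macrophages). A base mean of at least 50 removed BGLII_C in NPCs and, from the differences, RLTR13D, RLTR9A3A and BGLII_C, and centring removed RLTR11A2 and RLTR13B1 in macrophages.

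Differences with Holm adjustment numbered 8 for macrophages minus ESCs (5 higher in macrophages), 7 for NPCs minus ESCs (5 higher in NPCs) and 5 for macrophages minus NPCs (1 higher in macrophages). With the second table turned, macrophages minus ESCs had 5 higher and 13 lower, and NPCs minus ESCs 3 higher and 8 lower. For macrophages minus NPCs 13 passed, against 10 before. Members that passed only with the table turned numbered 8 for macrophages minus ESCs, 5 for NPCs minus ESCs and 9 for macrophages minus NPCs. By construction the difference then becomes a sum, and of 38 differences 18 changed sign, 10 others no longer passed and 10 kept their direction and call. The sign changes follow. Against ESCs in macrophages they were RLTR13G at -3.24, RLTR9A3A at -1.20, BGLII at -0.85, RLTR13E at -0.78, RLTR9E at -0.42, RLTR13D at -0.16 and RLTR13A1 at 0.10. Against ESCs in NPCs they were RLTR13G at -2.47, BGLII at -1.07, RLTR13E at -0.49, RLTR9D at -0.28, RLTR13D3 at -0.047 and RLTR13C1 at 0.55. Against NPCs in macrophages they were RLTR13D1 at -1.68, RLTR13C3 at -0.31, RLTR13D2 at -0.26, RLTR13D3 at 0.27 and RLTR13A3 at 1.05. The median SE of the members was 0.22 in NPCs and 0.11 in ESCs.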
